A study of Mus musculus with 2 samples.

Results

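The IL-12, IL-23 and IL-27 family was described here through 8 of the 55487 genes in a count table from mouse Langerhans cells. The genes were taken by name: the 5 ligand subunit genes Il23a, Il12b, Il12a, Il27 and Ebi3, and the 3 receptor chain genes Il12rb1, Il12rb2 and Il23r. All 8 were found in the table. The RNA came from Langerhans cells, which present antigen in the epidermis, of mice lacking Htr2a, the gene of the serotonin 2A receptor. The cells were sorted from digested ears as positive for CD207 (langerin) and MHC class II, then kept for 24 hours with imiquimod, a Toll-like receptor 7 agonist, and a reagent that the labels call a-CD40L. Both libraries belonged to 1 group (genotype HTR2A-/-, stimulated as above), with 69925160 counts in library 1 and 42264685 counts in library 2. Strain, age, the deleted part of the gene and any pooling of mice are not in the labels. Cells of wild-type mice and cells without stimulation were not analysed here, so every value is a level in stimulated knockout cells or a difference between these replicates. The series title speaks of IL-23 secretion by monocyte-derived Langerhans cells, which is why the balance of these subunits is of interest. RNA levels do not measure secretion.

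The family is built from shared parts. IL-12 joins p40 (Il12b) with p35 (Il12a), IL-23 joins the same p40 with p19 (Il23a), and IL-27 joins p28 (Il27) with EBI3, which can also pair with p35 as IL-35. The receptor of IL-12 is IL-12Rβ1 with IL-12Rβ2, and that of IL-23 is IL-12Rβ1 with IL-23R. In psoriasis-like skin inflammation of mice, IL-23 from dendritic cells acts on γδ T cells and innate lymphoid cells, which answer with IL-17 and IL-22.

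The libraries differed in the cells or states they held, which touches each result below. In these bulk samples, fewer cells of a type and less RNA per cell cannot be told apart. Cd207, the marker of the sort, reached 1125 CPM (counts per 1e6 counts) in library 1 and 1052 CPM in library 2. All 8 Langerhans cell markers stood above background in both, against 49.8% of protein-coding genes other than olfactory receptors. Summed, these 8 came to 19504 CPM in library 1, against 10458 CPM in library 2. Cd74 (7188 and 4067 CPM), Mfge8 (6204 and 2118 CPM) and H2-Ab1 (3486 and 1953 CPM) led the sums. By CPM, Cdh1 (481 and 793) and Epcam (155 and 178) were lower in library 1. By the test given further on, 5 of 8 were called at least 2-fold higher in library 1 and 0 in library 2 (median log2 ratio 1.33). Of all tested genes 12.6% and 24.5% were so called. Htr2a had 77 counts in library 1 and 117 in library 2, which per kb of exon lay within the background defined below. The 10 mature dendritic cell markers (Ccr7, Fscn1, Ccl22 and others) summed to 3207 CPM in library 1, against 824 CPM in library 2. The 10 T cell markers summed to 247 and 138 CPM, and the 8 monocyte and macrophage markers to 1346 and 599 CPM. The 10 keratinocyte markers summed to 4477 CPM in library 1, against 15514 CPM in library 2, led by Krt14 at 1315 and 4806 CPM. No marker of these 4 lists was at 0 in either library. Ddx3y, a Y-linked gene, had 10409 counts in library 1 and 4 in library 2, and the X-linked gene Xist had 273 and 58505. Library 1 was thus male-like and library 2 female-like in sex-linked expression. Sex cannot be told apart from any other difference between these libraries.

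The upstream sequences of Il12b and Ebi3 are shown first. Among ligand subunit genes with a RefSeq entry on GRCm38.p6 (Il12a, Il12b and Ebi3), these differed most between the libraries. The receptor chain genes Il12rb2 and Il23r also have an entry. Il12rb2 differed more than Ebi3 by CPM (3.26-fold against 2.66-fold). Each run is the 250 bases before the annotated start on the plus strand, 5′ to 3′, and capitals mark a motif match on either strand. The windows are chr11:44399813-44400062 and chr17:55952373-55952622, both on GRCm38.p6.
Il12b: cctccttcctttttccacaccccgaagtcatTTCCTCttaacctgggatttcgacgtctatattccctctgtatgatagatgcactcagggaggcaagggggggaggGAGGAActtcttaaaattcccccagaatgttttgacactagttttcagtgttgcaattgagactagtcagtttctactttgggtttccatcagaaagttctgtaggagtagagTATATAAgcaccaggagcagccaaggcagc
Ebi3: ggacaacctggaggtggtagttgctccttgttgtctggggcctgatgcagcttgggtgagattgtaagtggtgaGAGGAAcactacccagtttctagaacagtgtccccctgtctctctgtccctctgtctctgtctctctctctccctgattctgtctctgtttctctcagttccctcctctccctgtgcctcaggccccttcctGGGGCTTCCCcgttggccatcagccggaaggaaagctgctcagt

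In the Il12b window the motif GAGGAA, an ETS family core, matched on both strands, once at -219 to -214 and once at -143 to -138 from the start. A TATA motif, TATANAA, lay at -30 to -24. In the Ebi3 window GAGGAA matched at -176 to -171 and the NF-κB consensus at -44 to -35. No 2 of these matches overlapped. Of 32851 RefSeq windows of the same length, 23.3% held GAGGAA, 10.4% held TATANAA and 7.25% held the NF-κB consensus. The other motifs searched on both strands were the IRF consensus (in 2.98% of windows), TGANTCA (AP-1, 6.75%) and TTGCNNAA (C/EBP, 9.56%). None of these occurred in the Il12b and Ebi3 windows. The Il23r window held TTGCNNAA once and GAGGAA once, and the Il12rb2 window and both Il12a windows held no match. A match is a description of letters, not of a bound site.

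Of the family, 3 genes, Il23a, Ebi3 and Il12rb2, stood above background in both libraries. Background was set by 1135 protein-coding olfactory receptor genes, which most tissues do not express, because these genes carried counts here: a level was called above background when, in CPM per exon kb, it exceeded their 95th percentile, 0.761 in library 1 and 1.58 in library 2. The share of 3 of 8 compared with 49.8% of 20839 other protein-coding genes. In library 1 by itself 7 of 8 members passed, against 58.9% of those genes, and in library 2 by itself 3 of 8 passed, against 52.9%. Only Il12rb1 was within background in both libraries.

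**Figure D1:**
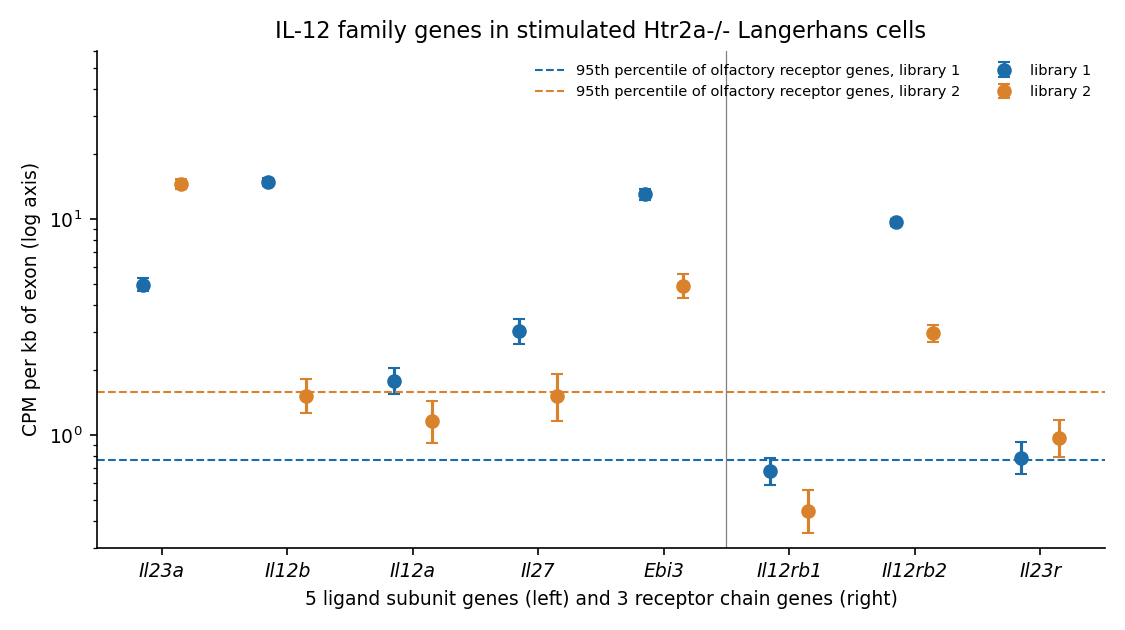
Level of each family gene in CPM per kb of exon (log axis), in library 1 (blue) and library 2 (orange), with exact 95% Poisson intervals that cover counting error only. Dashed lines mark the 95th percentile of olfactory receptor genes in each library, 0.761 and 1.58, and Il23a alone of the 5 ligand subunit genes is higher in library 2.

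Il23a encodes p19, the subunit specific to IL-23 (ENSMUSG00000025383, GRCm38 chromosome 10, 128296139 to 128298752, minus strand, 2247 bp of exon). It had 780 counts in library 1 and 1376 in library 2. That gave 4.96 CPM per kb of exon in library 1 (Poisson interval at 95%, 4.62 to 5.33) and 14.5 in library 2 (13.7 to 15.3), a level of 9.73 ± 6.73 CPM per kb (SD, n = 2). Il23a was thus 2.92 times as high in library 2 as in library 1 by CPM (95% interval 2.67 to 3.19). It stood at percentile 74.1 of all protein-coding genes in library 1 and 90.5 in library 2. Keratinocyte markers were higher in library 2 as well, by the sums given above, and their part in the Il23a level was not tested.

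Il12b encodes p40, the common subunit of both cytokines (ENSMUSG00000004296, chromosome 11, 44400063 to 44414033, plus strand, 1967 bp of exon). It had 2032 counts in library 1 and 126 in library 2. Per kb these were 14.8 CPM (14.1 to 15.4) and 1.52 CPM (1.26 to 1.80), a level of 8.14 ± 9.37 CPM per kb (SD, n = 2). In library 2 the value lay just under the threshold, at 0.958 times its level, and in library 1 it was 19.4 times the threshold there. Among protein-coding genes it stood at percentile 89.9 in library 1 and near the middle, at percentile 48.4, in library 2. Its difference between the libraries, 9.75-fold by CPM (95% interval 8.14 to 11.8), was the largest of the 8 genes.

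Il12a, the p35 subunit of IL-12 (ENSMUSG00000027776, chromosome 3, 68690644 to 68698547, plus strand, 1701 bp of exon), was rare in both libraries. It had 212 counts in library 1 and 83 in library 2, or 1.78 CPM per kb (1.55 to 2.04) and 1.15 CPM per kb (0.920 to 1.43). The first was 2.34 times the background threshold and the second 0.730 times. Il12a therefore had the lowest level of the 5 ligand subunits in each library, although in library 2 its interval overlapped those of Il12b and Il27.

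The subunits of IL-27 were unequal. Ebi3 (ENSMUSG00000003206, chromosome 17, 55952640 to 55957022, plus strand, 1154 bp of exon) had 1047 counts in library 1 and 238 in library 2, which per kb were 13.0 CPM (12.2 to 13.8) and 4.88 CPM (4.28 to 5.54). It was above background in both libraries, at 17.0 and 3.08 times the threshold. Il27, the p28 subunit (ENSMUSG00000044701, chromosome 7, 126589010 to 126594941, minus strand, 1021 bp of exon), had 216 counts in library 1 and 65 in library 2. Per kb these were 3.03 CPM (2.64 to 3.46) and 1.51 CPM (1.16 to 1.92), above background in library 1 and at 0.952 times the threshold in library 2. Both genes share exon sequence with a neighbour on the other strand: 23.4% of Ebi3 exon bases lie in exons of the antisense gene Gm16712 (365 and 184 counts), and 10.1% of Il27 exon bases lie in exons of Apobr (5400 and 1214 counts). Whether counting used strand is not stated in the labels, and reads of such pairs then cannot be told apart.

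The 5 ligand subunits made up different mixtures in the 2 libraries. Their summed level was 37.5 CPM per kb in library 1 and 23.5 CPM per kb in library 2. Il12b held 39.4% of that sum in library 1 and 6.44% in library 2, and Il23a held 13.2% and 61.5%. Ebi3 held 34.6% and 20.7%, Il27 8.06% and 6.40%, and Il12a 4.75% and 4.90%. Il12a, Il27 and Ebi3 thus kept their order in both libraries, while Il12b and Il23a exchanged places.

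**Figure D2:**
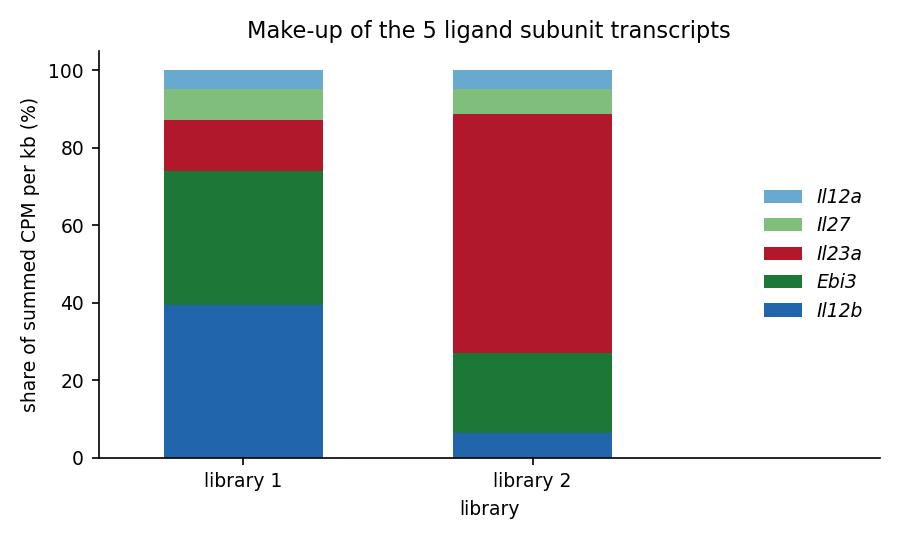
Share of each gene in the summed CPM per kb of the 5 ligand subunit genes (%), in library 1 and library 2. Il12b (39.4%) and Ebi3 (34.6%) fill most of library 1, and Il23a (61.5%) fills most of library 2.

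The supply of the shared p40 transcript relative to its partners followed from this. Per kb of exon, Il12b was 2.98 times Il23a in library 1 (95% interval 2.74 to 3.24) and 0.105 times Il23a in library 2 (0.0865 to 0.126). Against the sum of both partners, Il23a plus Il12a, the ratio of Il12b was 2.19 in library 1 and 0.0969 in library 2. The p40 transcript was thus in excess of the sum of its partners in library 1. It was scarcer than that sum in library 2, where Il12b was within background. Against Il12a by itself, Il12b was 8.29 times as high per kb in library 1 (7.19 to 9.59). In library 2 it was 1.31 times Il12a (0.987 to 1.75), with both genes within background. Il23a exceeded Il12a in both libraries, 2.79 times (2.39 to 3.26) in library 1 and 12.6 times (10.1 to 15.9) in library 2.

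Ratios within the IL-27 pair were steadier. Ebi3 exceeded Il27 by 4.29 times per kb in library 1 (95% interval 3.70 to 4.99) and 3.24 times in library 2 (2.45 to 4.33), with intervals that overlapped. Ebi3 exceeded Il12a, its partner in IL-35, by 7.28 times (6.27 to 8.48) in library 1 and 4.23 times (3.28 to 5.49) in library 2. Il12b was 1.14 times Ebi3 (1.06 to 1.23) in library 1 and 0.311 times Ebi3 (0.248 to 0.387) in library 2. Intervals cover counting error only, and Il12b, Il12a and Il27 were within background in library 2. After subtraction of the median background, Il23a over Il12a was 3.04 in library 1 and 27.2 in library 2, Ebi3 over Il12a 8.17 and 8.31, Ebi3 over Il27 4.55 and 4.92, and Il12b over Ebi3 1.14 and 0.206, so the library difference in Ebi3 over Il12a was not seen there.

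**Figure D3:**
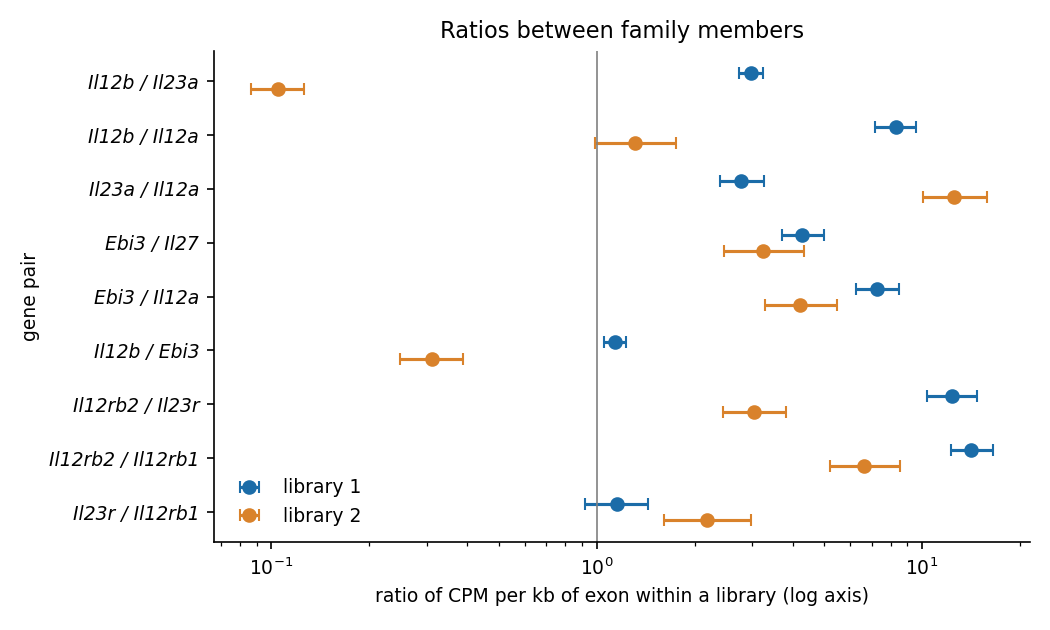
Ratio of CPM per kb of exon between pairs of family genes within library 1 (blue) and library 2 (orange), on a log axis with exact 95% intervals for counting error. Il12b over Il23a lies on opposite sides of 1 in the libraries (2.98 and 0.105), while the intervals of Ebi3 over Il27 overlap (4.29 and 3.24).

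Of the receptor chains, Il12rb2 was by far the most abundant. It encodes the signalling chain of the IL-12 receptor (ENSMUSG00000018341, chromosome 6, 67291318 to 67376188, minus strand, 3794 bp of exon) and had 2555 counts in library 1 and 473 in library 2. That gave 9.63 CPM per kb in library 1 (9.26 to 10.01) and 2.95 in library 2 (2.69 to 3.23), above background in both libraries. A limit applies to this gene: 1519 of its 3794 exon bases lie in exons of Serbp1, an abundant gene of the other strand. Serbp1 had 24068 counts in library 1 and 24225 in library 2, or 344 and 573 CPM, and how many Il12rb2 counts come from the shared bases was not tested.

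Il12rb1, the chain common to both receptors, and Il23r, the specific chain of the IL-23 receptor, were near or within background. Il12rb1 (ENSMUSG00000000791, chromosome 8, 70808449 to 70821424, plus strand, 4105 bp of exon) had 195 counts in library 1 and 77 in library 2. Its levels of 0.679 and 0.444 CPM per kb stood at percentiles 93.4 and 27.7 of olfactory receptor genes. In library 1 the level was 0.893 times the threshold, with an interval of 0.587 to 0.782 that spanned it. Il23r (ENSMUSG00000049093, chromosome 6, 67422932 to 67491855, minus strand, 2488 bp of exon) had 136 counts in library 1 and 102 in library 2. Its 0.782 CPM per kb in library 1 was 1.03 times the threshold, with an interval of 0.656 to 0.925 that spanned it, and its 0.970 CPM per kb in library 2 stood at percentile 75.7 of background genes. A receptor for IL-12 or IL-23 needs Il12rb1, whose level did not exceed the background threshold in either library. Whether the cells carry such a receptor was not tested.

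T cell transcripts are given beside the receptor chains, because T cells and innate lymphoid cells carry these receptors. Cd3e, a chain of the T cell receptor complex, had 42.4 CPM in library 1, against 12.4 CPM in library 2, and Trdc, the γδ T cell receptor constant region, at 42.5 and 15.4 CPM. Il2rb, a receptor chain of T and NK cells, was at 61.6 and 17.2 CPM. All 10 T cell markers were above background in library 1 and 7 of 10 in library 2, against 58.9% and 52.9% of protein-coding genes other than olfactory receptors. Cd3g, another chain of that complex, had 65.1 CPM in library 1, against 16.2 CPM in library 2, and the adhesion molecule Cd2 had 19.8 and 6.86 CPM. Other genes of the list went the other way or were level: Thy1 had 30.9 CPM in library 1, against 68.3 CPM in library 2, Trac 0.872 and 1.23 CPM, and Lat 8.32 and 7.88 CPM. Of the 10 markers 7 were called at least 2-fold higher in library 1 and 0 in library 2, against 12.6% and 24.5% of all tested genes. The part of T cells in the Il12rb2 level was not tested. Of 6 NK and innate lymphoid cell markers, 5 were above background in library 1 and 4 in library 2, with sums of 346 and 401 CPM. The sum in library 2 was led by Gata3 (27.9 and 226 CPM), a transcription factor that keratinocytes also express.

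The order of the 8 genes by level per kb showed which neighbours could be separated. In library 1 the order was Il12b, Ebi3, Il12rb2, Il23a, Il27, Il12a, Il23r and Il12rb1. The intervals of Il23r and Il12rb1 overlapped there, and those of the other neighbours did not. In library 2 the order was Il23a, Ebi3, Il12rb2, Il12b, Il27, Il12a, Il23r and Il12rb1. The intervals of Il12b, Il27 and Il12a overlapped one with the next, as did those of Il12a and Il23r.

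Next the libraries were compared gene by gene, to show how far each family member departs from the general difference between these replicates. The 30373 genes that reached 1 CPM in either library were tested, after TMM scaling, with edgeR's exact binomial test. It takes in sampling noise only, and what it compares is a pair of libraries and not conditions. Of all tested genes 80.2% had a Benjamini-Hochberg adjusted p under 0.05, so a call by itself says little. Of the 8 members 7 were called and at least 2-fold different, against 37.1% of all tested genes. At least 2-fold higher in library 1 were 6 members, against 12.6% of all tested genes, and at least 2-fold higher in library 2 was Il23a, against 24.5%. These shares depend on the genes taken: they were 14.7% and 18.3% of protein-coding genes, 21.4% and 5.09% of genes above background in library 1, and 18.5% and 6.23% of genes above background in both libraries. With total counts in place of TMM, Il12b, Ebi3 and Il12rb2 were at least 2-fold higher in library 1, against 5.48% of all tested genes, and Il23a at least 2-fold higher in library 2, against 38.6%. With DESeq2 size factors the same 6 members as under TMM were at least 2-fold higher in library 1, against 14.9% of all tested genes, and none in library 2, against 22.3%, since Il23a had a log2 ratio of -0.94.

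The median log2 ratio of library 1 over library 2 was 1.31 over the 8 members and -0.15 over all tested genes. Il12b had a log2 ratio of 3.78, and its adjusted p in edgeR's exact test was too small for the software to represent. Il12rb2 had 2.21 (adjusted p = 7.10e-276, exact binomial test of edgeR), and Ebi3 had 1.91 (adjusted p = 1.25e-94, same exact test). Il27 was at 1.49 (exact test adjusted p = 6.55e-15), Il12a at 1.12 (exact test adjusted p = 8.79e-10) and Il12rb1 at 1.11 (exact test adjusted p = 5.39e-09). These last 3 lay within background in library 2, as did Il12b, and Il12rb1 lay within it in library 1 as well. Il23a had -1.04 (adjusted p = 1.75e-60, edgeR's exact test), the sole member with a negative value under TMM. Il23r had 0.19 (exact test adjusted p = 0.364), and its sign turned with total counts, to -0.31.

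Each ratio was also taken relative to the median of all tested genes, which replaces the scaling by another reference. That median was -0.15 under TMM, -0.05 under size factors of DESeq2 and -0.65 under total counts. Relative to that median, Il12b was 3.93 higher in library 1 on the log2 scale, Il12rb2 2.36, Ebi3 2.06, Il27 1.64, Il12a 1.27, Il12rb1 1.26 and Il23r 0.34. Il23a was at -0.89 relative to it. These values depend on the genes taken as reference. Genes above background in both libraries had a median log2 ratio of 0.33 under TMM, and Il23r, with 0.19, lay below that median. The 2 subunits of IL-23 thus differed between the libraries in opposite directions, while the 2 of IL-27 differed in the same direction.

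**Figure D4:**
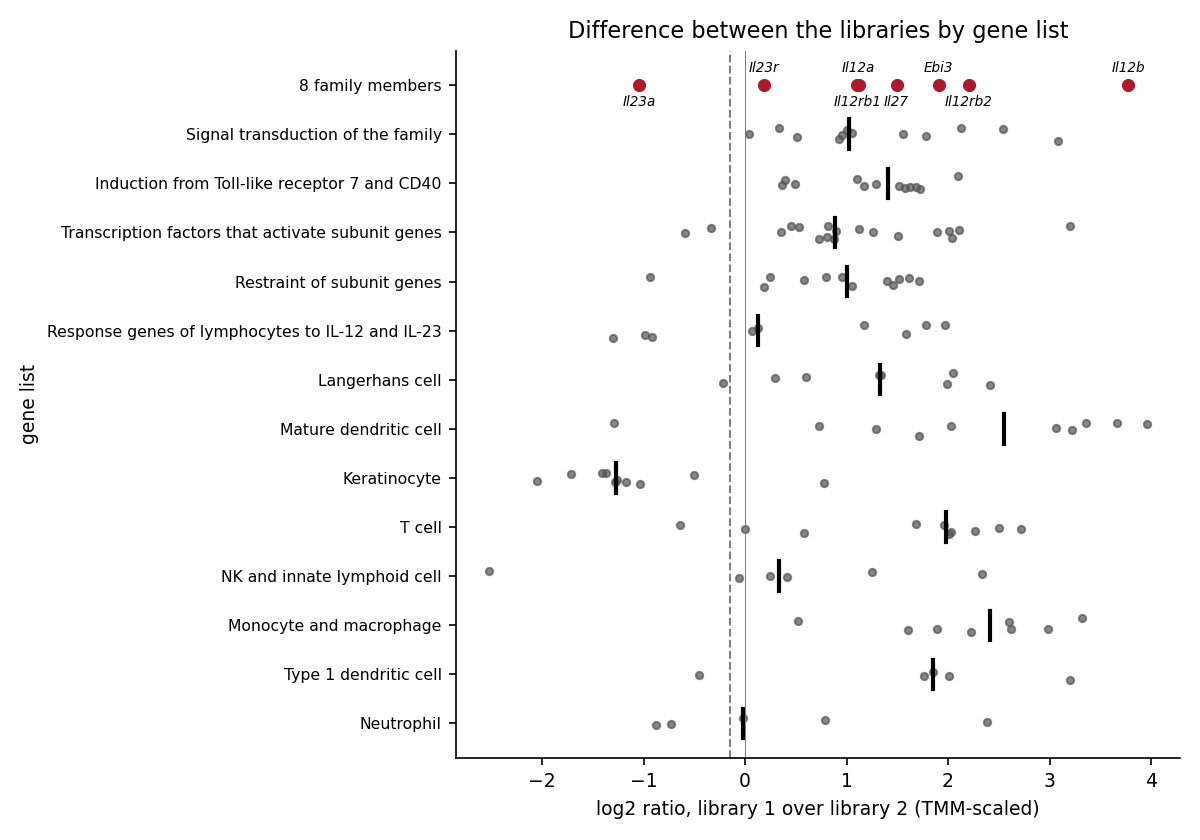
Log2 ratio of library 1 over library 2 (TMM-scaled) for the 8 family members (red, named) and for genes of 5 pathway and 8 cell marker lists (grey, 1 point per gene, black bars are medians). The dashed line marks the median of all tested genes (-0.15), and Il23a (-1.04) lies with most keratinocyte markers while Il12b (3.78) lies with the highest mature dendritic cell markers.

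Among 120 tested genes of the pathway and marker lists, those with the ratio nearest to that of Il12b were the mature dendritic cell genes Ccl22 (log2 ratio 3.66), Il4i1 (3.96) and Fscn1 (3.36). Of these, Il4i1 lay within background in library 2. Nearest to Il23a were the keratin gene Krt10 (-1.03), the chemokine receptor gene Ccr6 (-0.98) and the prostaglandin E2 receptor gene Ptger2 (-0.94), of which Ccr6 and Ptger2 lay within background in both libraries. Likeness over 2 libraries rests on a single ratio per gene. Of the mature dendritic cell markers 8 of 10 were called at least 2-fold higher in library 1 and 1 in library 2 (median log2 ratio 2.55). Other lists leaned the same way, with 0 called at least 2-fold higher in library 2. In library 1 these were 7 of 8 monocyte and macrophage markers (median 2.41), 7 of 10 T cell markers (1.98) and 4 of 5 type 1 dendritic cell markers (1.85). Of the keratinocyte markers 0 of 10 were called at least 2-fold higher in library 1 and 8 in library 2 (median -1.27). Neutrophil markers were mixed, with 1 of 5 called at least 2-fold higher in library 1 and 0 in library 2 (median -0.02). Their log2 ratios were positive for 2 and negative for 3, and they summed to 312 CPM in library 1 and 618 CPM in library 2. Over all tested genes the shares were 12.6% and 24.5%. The part of any of these cell types in the Il12b and Il23a levels was not tested.

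Signalling genes of this family, among them the IL-27 receptor chains Il27ra and Il6st, were expressed in both libraries, apart from Il27ra. Of 12 such genes 11 exceeded background in each library, against 58.9% and 52.9% of protein-coding genes other than olfactory receptors. Called at least 2-fold higher in library 1 were 7, and 0 in library 2 (5 and 0 with total counts). Over all tested genes these shares were 12.6% and 24.5% (5.48% and 38.6% with total counts). The median log2 ratio was 1.03. Per kb the most abundant were Socs3, a feedback inhibitor of cytokine signalling (213 CPM per kb in library 1 and 51.6 in library 2), Jak2, the kinase bound to IL-12Rβ2 and IL-23R (96.0 and 31.0), Stat3, the main transducer of IL-23 (47.5 and 32.3), and Jak1 (43.5 and 32.4). The largest difference was that of Stat4, the transducer of IL-12, at 11.3 CPM per kb in library 1 and 1.88 in library 2 (log2 ratio 3.09, above background in both). Socs3 had a log2 ratio of 2.54. Of the IL-27 receptor, the common chain gp130 (Il6st) was at 14.3 CPM per kb in library 1 and 16.0 in library 2, whereas the specific chain Il27ra was within background in both, with 113 and 94 counts.

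The machinery that links Toll-like receptor 7 and CD40 to these genes was also present. Of 12 genes 12 were above background in library 1 and 11 in library 2, against 58.9% and 52.9% of protein-coding genes other than olfactory receptors. By the same test 9 were called at least 2-fold higher in library 1 and 0 in library 2 (6 and 0 with total counts). Shares of all tested genes so called were 12.6% and 24.5% (5.48% and 38.6% with total counts). The median log2 ratio was 1.41. The most abundant per kb were Unc93b1, the chaperone of endosomal Toll-like receptors (37.7 CPM per kb in library 1 and 12.4 in library 2), the adaptor Myd88 (32.4 and 15.4), Cd40 (31.6 and 15.6) and Map3k14, the NF-κB-inducing kinase (29.8 and 12.8). Unc93b1 (log2 ratio 2.10) and Map3k14 (1.73) also differed most between the libraries. Tlr7, the receptor of imiquimod, was at 3.42 CPM per kb in library 1 and at 1.56 in library 2, where it lay within background.

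Transcription factors known to activate the subunit genes were nearly all expressed. Of 18 genes 18 were above background in library 1 and 17 in library 2, against 58.9% and 52.9% of protein-coding genes other than olfactory receptors. Some 8 were called at least 2-fold higher in library 1 and 0 in library 2 (6 and 1 with total counts). All tested genes gave shares of 12.6% and 24.5% (5.48% and 38.6% with total counts). The median log2 ratio was 0.89. The AP-1 genes Fos (607 CPM per kb in library 1 and 303 in library 2) and Jun (297 and 530) led the list, followed by Cebpb (185 and 120.0) and Nfkbiz, the inducible IκBζ (102 and 78.6). Rel, the c-Rel subunit of NF-κB, was at 98.2 CPM per kb in library 1 and 58.0 in library 2. Irf8, a partner in Il12b activation, was at 35.4 and 12.4 (log2 ratio 2.01). The myeloid factor Spi1 had the largest log2 ratio of those above background in both libraries, 2.11, next to Irf5 with 2.04. Batf3 was at 9.22 CPM per kb in library 1 and within background in library 2, at 1.41. Under TMM, Rela was 1 of 2 genes with a negative log2 ratio, at 24.2 CPM per kb in library 1 and 51.7 in library 2 (-0.59), and the other was Jun (-0.33).

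Genes that restrain the subunits were expressed as well. Of 12 genes 11 exceeded background in each library, against 58.9% and 52.9% of protein-coding genes other than olfactory receptors. Called at least 2-fold higher in library 1 were 6, and 0 in library 2 (3 and 1 with total counts). Among all tested genes the shares were 12.6% and 24.5% (5.48% and 38.6% with total counts). The median log2 ratio was 1.01. Atf3, a repressor of Il12b in mouse macrophages, was at 424 CPM per kb in library 1 and 401 in library 2, and Nfkbia, the NF-κB inhibitor IκBα, at 342 and 425. Tnfaip3, which encodes the inhibitor A20, was at 188 and 224, and Nfil3, a repressor of Il12b, at 134 and 62.1. Il10 was at 18.2 CPM per kb in library 1 and 14.7 in library 2, and the receptor chain Il10ra had the largest difference (61.2 and 26.4, log2 ratio 1.71), next to Nfil3 (1.61). Against Il23a, Il10 was higher per kb in library 1, and in library 2 it lay within the interval of Il23a.

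Of 10 genes with which lymphocytes answer IL-12 and IL-23, 5 were above background in library 1, near the 58.9% of protein-coding genes other than olfactory receptors. In library 2 there were 3, against 52.9% of those genes, and in both libraries 2, against 49.8%. Il1r1, the IL-1 receptor, was at 3.69 CPM per kb in library 1 and 4.96 in library 2, and Csf2, which encodes GM-CSF, at 1.02 and 2.75. Il18r1 was at 3.57 and 1.46, and Il22 at 2.33 and 1.09, both above background in library 1 alone. Il17a, with 51 and 14 counts, and Il17f, with 81 and 17 counts, were within background in both libraries. Of 9 tested genes 4 were called at least 2-fold higher in library 1 and 1 in library 2 (3 and 3 with total counts). Shares over all tested genes were 12.6% and 24.5% (5.48% and 38.6% with total counts). The median log2 ratio of the 9 genes was 0.13, or -0.37 with total counts.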

How the data were processed

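RNA was measured in 2 libraries of 1 group. The table the authors deposited holds raw counts by Ensembl gene identifier, a column for each library. GRCm38, HISAT2, StringTie, SAMtools and Trimmomatic appear in the submitters' processing notes; their versions, the annotation and the strand setting are not given there. The column with replicate number 2 is library 2, and the unnumbered column library 1. Of the rows, 2 held no identifier (an empty one and the column totals) and were left out. Symbols, positions and union exon lengths came from GENCODE M21 (GRCm38), which named 55227 of 55487 rows; upstream sequences came from RefSeq (GRCm38.p6).

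CPM used total counts. Intervals are exact (Poisson for a count, conditional binomial for a ratio) at 95% and cover counting error only, since the libraries carry no molecular identifiers. Log2 ratios (TMM-scaled, prior count 1) have library 1 on top. Tests were exact binomial tests in edgeR 4.0.16 under R 4.3.3, checked on simulated data, with Benjamini-Hochberg adjustment over all 30373 tested genes at 0.05. For high totals, where edgeR turns to an approximation that ignores the scaling, R's exact binomial test was used. A quasi-likelihood test could not be fitted to 1 library against another. Nothing says the samples came from separate animals beyond the sex-linked genes. The p-values set the difference between these libraries against counting noise only and hold no estimate of the spread between animals.

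The members and lists were chosen with earlier results of these data known. Genes named besides members fall, per list, among the 4 with the highest mean CPM per kb or the 2 with the largest ratio among genes above background. Marker lists are given by sums and a few of these. Others are the nearest or overlapping genes of members, the 3 list genes nearest in ratio to Il23a and to Il12b, and a fixed few (Htr2a, Tlr7, Cd40, Rel, Irf8, Il27ra, Il6st, Il10). Batf3, Il17a, Il17f, Rela, Trac, Lat, Cdh1, Epcam, Ddx3y and Xist were added after their values were seen. Alternatives were other scalings (DESeq2 1.42.0 size factors, total counts), filters, backgrounds, lengths and prior counts.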

Additional observations from a re-analysis of the deposited data

How the results depend on the processing

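The count of 3 members above background in both libraries became 5, with Il12b and Il27, at the 90th percentile of olfactory receptor genes or with vomeronasal receptor genes as background. The shares of other protein-coding genes under these settings are not given here. The count stayed at 3 at the 99th percentile, without length scaling and with the longest transcript as length. With each library left out in turn it was 3 (library 2 alone) and 7 (library 1 alone). The count of 7 members at least 2-fold different became 4 with total counts, 6 with DESeq2 size factors, where Il23a (-0.94) was lost, and 5 with Fisher's exact test on unscaled counts, which changes test and scaling together (44.4% of all tested genes). It stayed at 7 with no filter, with at least 10 counts in both libraries and at a dispersion of 0.04. At that dispersion 3620 of 30373 tested genes were called at least 2-fold higher in library 1 and 6566 in library 2. Log2 ratios kept their sign under the scalings and the prior count of 5 for all members but Il23r, which turned to -0.31 with total counts and -0.41 when scaled to Cd207 counts, a scaling chosen after seeing the data. After subtraction of the median background from unscaled CPM per kb the log2 ratio was 4.06 for Il12b (3.28 with total counts and no subtraction), 1.62 for Il12a (0.62), 1.70 for Il27 (1.00), 2.03 for Il12rb2 (1.71) and 0.79 for Il23r (-0.31); Il12rb1 was below that median in library 2 and gave no value. The Il12b to Il23a ratio in library 1 was 2.61 in raw counts and 2.31 with longest transcript lengths; in library 2 it was 0.0812 with longest transcript lengths and 0.0629 after background subtraction. No paired analysis was possible because there is 1 group. At this depth 3 counts, the limit a count of 0 allows, are 0.0429 CPM in library 1 and 0.0710 CPM in library 2, so background and not counting limits the rare members.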

Other observations

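The nearest protein-coding genes on either side of Il23a had positive ratios under TMM, where Il23a had a negative one, although Pan2 was lower in library 1 by CPM. Stat2, a transducer of interferon signalling whose gene ends 3290 bp from Il23a, was at 12.3 CPM per kb of exon in library 1 and 8.39 in library 2 (log2 ratio 1.05), and Pan2, a subunit of a poly(A) nuclease 4583 bp away on the other side, was at 2.62 and 3.28 (0.18). Il23a had a log2 ratio of -1.04. Ublcp1, the nearest protein-coding gene to Il12b, 40538 bp away, was at 3.37 CPM per kb in library 1 and 2.94 in library 2 (0.70), against 3.78 for Il12b. Il12rb2 and Il23r lie 46744 bp apart on chromosome 6, on the same strand, and had log2 ratios of 2.21 and 0.19.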
